A study of Mus musculus with 10 samples.

Results

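Microglia that had repopulated the hippocampus of 5xFAD mice were compared with microglia of 5xFAD mice that had not been depleted. The groups compared hold 6 of the 10 RNA-seq libraries of the series, 3 in each, and all genes of the deposited table were used. Mice of the 5xFAD line carry mutant human transgenes linked to familial Alzheimer disease, driven by the neuronal Thy1 promoter, and form amyloid plaques. Control 5xFAD mice received normal diet throughout. Repopulated 5xFAD mice were fed chow with PLX3397 at 290 mg/kg for 1 month from the age of 4 months, and then normal diet for 1 month. PLX3397 inhibits the CSF1 receptor and also the related kinases KIT and FLT3. Both groups carry the transgenes, and no wild-type mice given PLX3397 were analysed here. Wild-type mice on normal diet gave another 4 libraries. Their levels are printed beside those of the compared groups as a description. They also entered the main fit, so the spread behind its p-values rests partly on them. All cells were sorted from the hippocampus as CD45low CD11b+ cells. The sources used here do not give the ages of the control and wild-type mice, the sex of any mouse, or whether a library came from 1 animal or several. P-values therefore measure the spread between these libraries, which may be technical.

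Microglia are the resident macrophages of the brain and depend on signalling through the CSF1 receptor to survive. When an inhibitor of the receptor is withdrawn, surviving microglia divide and refill the tissue. Near amyloid plaques microglia lower a set of homeostatic genes and raise a disease-associated programme that includes Apoe, Trem2, Cst7, Lpl and Igf1. The comparison asks which of these transcripts differ once the cells have been replaced in mice that still carry the transgenes.

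The 6 libraries held 21652901 to 23286808 estimated counts each. The sorted cells carried the defining markers of microglia. Among all genes by TPM, a unit scaled for gene length, P2ry12 ranked 21 to 33, Csf1r 58 to 139 and Tmem119 88 to 319. Summed transcripts of border-associated macrophages (20 genes, none at 0) overlapped between groups, at 268 to 353 CPM in control and 284 to 335 CPM in repopulated libraries, where CPM is counts per 1000000 of the scaled library total. Summed endothelial and mural markers (20 genes, 4 at 0 in all 6 libraries) were at 761 to 1213 CPM in control and 963 to 1098 CPM in repopulated libraries. Oligodendrocyte markers (18 genes, 1 at 0) summed to 1970 to 3212 CPM and 2681 to 3036 CPM. Transcripts of 4 Y-linked genes, in CPM of the unscaled total, were near absent in control 1 (7.76) and control 3 (5.12). They were present in control 2 (483.77) and in all repopulated libraries (341.87 to 355.82). Control 2 also stood apart from the other controls. It lay at -55.06 on the first principal component of the 6 libraries (36.9% of the variance), against -17.62 and -9.21 for control 1 and 3 and 16.04 to 34.54 for the repopulated libraries. Ngp, a neutrophil granule gene, followed the same division, with 2.46 and 6.6 CPM in control 1 and 3, 51.2 CPM in control 2 and 45.2, 40.0 and 17.3 CPM in repopulated 1, 2 and 3. A fit without the 3 libraries that lack Y-linked transcripts (wild-type 2, control 1 and control 3) gave the values quoted against control 2 alone, so those values have a single control library, and their spread is estimated from the other groups, on the assumption that the lone control varies as they do.

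Between repopulated and control 5xFAD microglia 71 of 12505 tested genes passed edgeR's quasi-likelihood test at an adjusted p of 0.05 (0.568%). Of these, 44 (0.352%) were higher and 27 (0.216%) were lower in repopulated microglia. At an unadjusted p under 0.05 there were 2317 genes. Leaving out egg transcripts without a control count, the called genes rose 1.55-fold to 4.11-fold or fell 1.58-fold to 8.86-fold. With those 4 egg transcripts included, 35 of the 71 differed at least 2-fold. The groups did not overlap for any of the 71 genes. Over all tested genes, 15.0% lay wholly higher in the 3 repopulated libraries and 15.7% wholly lower. With the 6 compared libraries alone in the fit 630 genes were called, the 71 among them. DESeq2 called 698 genes, 63 of the 71 among them, and limma-voom 125, with 69 of them. The count rested on single libraries. It was 328 without wild-type 3, 178 without control 3, 124 without wild-type 1, 46 without wild-type 2, 47 without wild-type 4, 42 without repopulated 3, 4 without control 2, 4 without repopulated 1, 2 without control 1 and 0 without repopulated 2. In the last of these fits 1322 genes had an unadjusted p under 0.05, DESeq2 called 121 genes and limma-voom 7. With a term for Y-linked transcript status Iqgap1 was the 1 gene called, and against control 2 alone 388 genes were, 48 of the 71 among them.

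**Figure D1:**
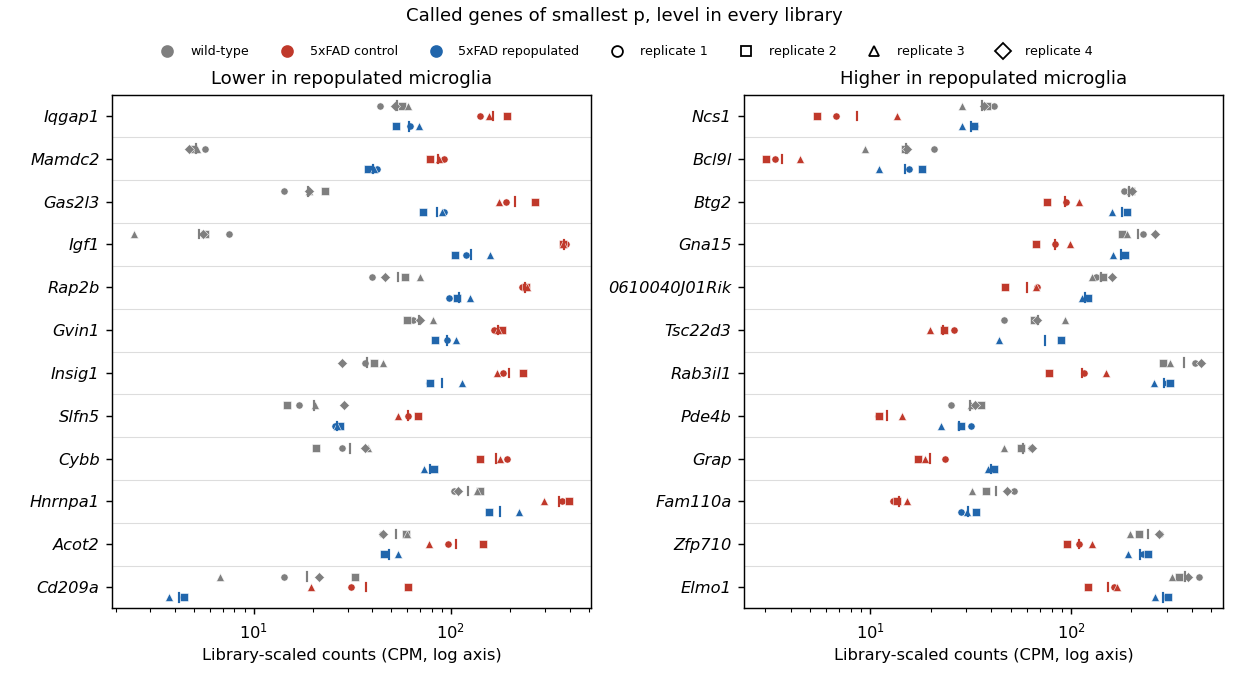
Level of called genes in each of the 10 libraries, in CPM on a log axis, for the 12 genes of smallest p in each direction that had counts in the control group (points are libraries, shapes replicate numbers, short vertical lines group means). In every row the 3 repopulated libraries lie on one side of the 3 control libraries.

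The genes that fell included the growth factor gene Igf1 and other members of the disease-associated programme. Igf1 (Entrez 16000, chromosome 10, 87858265 to 87937047, GRCm38.p6) encodes insulin-like growth factor 1, which activated microglia secrete. It was at 382.3, 370.1 and 368.6 CPM in control 1, 2 and 3 and at 118.6, 104.8 and 158.3 CPM in repopulated 1, 2 and 3. The controls were nearly level, and every repopulated library was below them. The fall was 2.94-fold (log2 fold change -1.55, SE 0.25, edgeR adjusted p = 0.0158). Wild-type microglia had 2.48 to 7.52 CPM, so repopulated microglia still held more Igf1 transcript than any wild-type library. Mamdc2, which encodes a secreted proteoglycan (chromosome 19, 23302609 to 23448497), was at 92.7, 78.7 and 86.8 CPM in the controls and 42.1, 38.1 and 41.0 CPM in the repopulated libraries. It fell 2.13-fold (SE 0.14 on the log2 scale, edgeR adjusted p = 0.00657), with 4.72 to 5.69 CPM in wild-type microglia. Gas2l3, whose product links actin to microtubules and acts in cytokinesis (chromosome 10, 89408822 to 89443980), was at 190.3, 267.3 and 175.8 CPM in the controls and 91.9, 72.1 and 89.8 CPM in the repopulated libraries. Control 2 was the highest of the controls, and the fall was 2.49-fold (edgeR adjusted p = 0.0119). Wild-type libraries had 14.3 to 23.1 CPM of Gas2l3.

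Cybb, the membrane subunit of the phagocyte NADPH oxidase, which makes superoxide (chromosome X, 9435252 to 9487766), was at 193.1, 140.3 and 177.6 CPM in the controls and 80.1, 82.2 and 72.9 CPM in the repopulated libraries. It fell 2.17-fold (edgeR adjusted p = 0.0249), and wild-type microglia had 20.7 to 38.0 CPM. Fabp5, a fatty acid binding protein gene, fell 2.78-fold from 48.0 ± 1.44 to 17.3 ± 5.38 CPM (SD, n = 3 each, edgeR adjusted p = 0.0496). Lilrb4a, an inhibitory leukocyte receptor gene, fell 1.83-fold from 171 ± 26.6 to 93.3 ± 15.6 CPM (SD, n = 3 each, edgeR adjusted p = 0.0496). Wild-type levels of these lipid and receptor genes were lower again, at 0.482 to 1.9 CPM for Fabp5 and 9.5 to 14.5 CPM for Lilrb4a. With the GC and length correction described below, the log2 fold change was -1.32 for Igf1, -0.93 for Cybb and -0.66 for Lilrb4a, against -1.55, -1.12 and -0.87 without it, and the edgeR adjusted p was 0.0511, 0.0751 and 0.167. The ranges of that p over the alternatives were 1.73e-07 to 0.146, 2.91e-06 to 0.174 and 0.000388 to 0.247.

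The scaffold gene Iqgap1 and the GTPase gene Rap2b fell as well. Iqgap1 encodes a scaffold that joins actin to Rac1 and Cdc42 signalling (Entrez 29875, chromosome 7, 80711583 to 80815549). Its level was 140.7, 191.9 and 155.6 CPM in the controls and 62.3, 52.7 and 69.0 CPM in the repopulated libraries. It had the smallest p of all tested genes, with a fall of 2.65-fold (log2 fold change -1.41, SE 0.17, edgeR adjusted p = 0.00618). The repopulated levels overlapped the 43.5 to 60.6 CPM of wild-type microglia. Rap2b, a Ras-family GTPase gene (chromosome 3, 61364507 to 61368703), was at 229.7, 240.9 and 243.5 CPM in the controls and 97.4, 107.4 and 125.6 CPM in the repopulated libraries. The fall was 2.16-fold (edgeR adjusted p = 0.0158). Every repopulated library was still above the 39.7 to 69.7 CPM of wild-type microglia. Of 54 genes of the actin cytoskeleton and motility Iqgap1 and Gas2l3 fell and Elmo1 rose, and the median log2 fold change was 0.16. Of the 54, 18 (33.3%) lay wholly higher and 7 (13%) wholly lower, against 15.0% and 15.7% of all tested genes.

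Insig1 encodes an endoplasmic reticulum protein that holds back sterol synthesis and is itself induced by the sterol-regulated factor SREBP2 (chromosome 5, 28071412 to 28078662). It was at 184.5, 233.3 and 171.8 CPM in the controls and 77.4, 78.1 and 113.4 CPM in the repopulated libraries, and fell 2.19-fold (edgeR adjusted p = 0.0208). Of 35 sterol and fatty acid synthesis genes Insig1 was the 1 called. The median log2 fold change of the list was 0.01. Acot2, a mitochondrial acyl-CoA thioesterase gene, was at 96.3, 144.7 and 77.5 CPM in the controls and 45.8, 45.7 and 53.7 CPM in the repopulated libraries. It fell 2.19-fold (edgeR adjusted p = 0.0285), to a level within the 45 to 60.1 CPM of wild-type microglia.

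Among genes of antiviral and interferon responses Slfn5, Gvin1 and Zc3hav1 fell. Slfn5, a Schlafen family gene that interferon induces (chromosome 11, 82951349 to 82964850), was at 60.3, 68.3 and 53.9 CPM in the controls and 25.9, 27.3 and 26.4 CPM in the repopulated libraries. It fell 2.29-fold (edgeR adjusted p = 0.0215), and wild-type microglia had 14.8 to 28.7 CPM. Gvin1, a very large interferon-inducible GTPase gene, was at 164.8, 181.0 and 174.2 CPM in the controls and 95.9, 83.1 and 106.6 CPM in the repopulated libraries. The fall was 1.82-fold (edgeR adjusted p = 0.0163), and Gm4070, a gene of the same family on chromosome 7, fell 1.58-fold. Near-identical genes of this family can share reads, so their separate values are uncertain. Zc3hav1, which encodes the antiviral zinc finger protein ZAP, fell 2.04-fold from 889 ± 221 to 436 ± 86.2 CPM (SD, n = 3 each, edgeR adjusted p = 0.0496).

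The promoters of Slfn5 and Cybb are shown because, of the 21 called lower genes with a promoter in the RefSeq table, these 2 held a match to the interferon-stimulated response element, searched on both strands as GAAA, any 2 bases and GAAA again, with no other motif searched. The window was the 250 bases upstream of the 1 start that the RefSeq table lists for each gene on GRCm38.p6, which for both genes lies inside the gene interval given above, so it is the start of 1 transcript and other starts were not searched. It is printed 5' to 3' in the direction of the gene, with matches in capitals (TTTC, 2 bases and TTTC where the match is on the other strand). The Slfn5 window is chr11:82951852-82952101 on the plus strand and the Cybb window chrX:9469325-9469574 on the minus strand.
Slfn5: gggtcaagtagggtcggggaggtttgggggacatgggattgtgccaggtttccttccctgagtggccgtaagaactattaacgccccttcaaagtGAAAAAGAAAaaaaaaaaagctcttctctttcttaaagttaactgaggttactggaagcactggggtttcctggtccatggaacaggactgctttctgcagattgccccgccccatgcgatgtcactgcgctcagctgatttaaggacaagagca
Cybb: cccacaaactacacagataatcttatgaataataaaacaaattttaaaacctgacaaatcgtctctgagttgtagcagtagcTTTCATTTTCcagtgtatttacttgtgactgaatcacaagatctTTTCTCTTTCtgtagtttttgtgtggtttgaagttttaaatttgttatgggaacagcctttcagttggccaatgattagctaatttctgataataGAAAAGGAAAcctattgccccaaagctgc
The Slfn5 match begins 155 bases upstream of the start, and the 3 Cybb matches begin 168, 124 and 29 bases upstream. The motif was present in 335 of 10081 tested genes with a promoter (3.32%), in 0 of 36 called higher genes, in 2 of 21 called lower genes (9.52%) and in 20 of 40 genes of the interferon list (50%). A match is a run of letters and does not show binding.

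Cd209a had the largest fall among the called genes. It encodes a C-type lectin of dendritic cells and some macrophages (chromosome 8, 3743395 to 3748984). Its level was 31.1, 60.6 and 19.6 CPM in the controls and 4.41, 4.42 and 3.71 CPM in the repopulated libraries. The controls spread widely among themselves, the repopulated libraries were nearly level, and the fall was 8.86-fold (SE 0.55 on the log2 scale, edgeR adjusted p = 0.0351). Wild-type libraries spread from 6.75 to 32.6 CPM, all above the repopulated ones. The related gene Cd209d had 0 counts in every repopulated library and 0.394, 1.11 and 0.66 CPM in the controls. Of 18 dendritic cell markers tested, Cd209a was the 1 called. Of the 18, 8 had a positive and 10 a negative log2 fold change, with a median of -0.09. Wholly higher were 22.2% and wholly lower 27.8%, against 15.0% and 15.7% of all tested genes. The dendritic genes Xcr1 and Zbtb46 were at 1.23 to 2.17 and 4.83 to 6.5 CPM in the controls and 0.92 to 1.08 and 5.39 to 7.34 CPM in the repopulated libraries. Summed over 23 dendritic cell markers, the level was 4649 to 5831 CPM in the controls and 3774 to 4067 CPM in the repopulated libraries. That sum includes Siglech, which is also on the list of homeostatic microglia genes and ranked 32 to 44 among all genes by TPM. In bulk RNA, fewer cells of a type and less transcript per cell cannot be told apart. The summed level of 24 monocyte and marrow-derived macrophage markers was 431 to 444 CPM in the controls and 299 to 310 CPM in the repopulated libraries, with Ly6c1 at 0 in all 6. Of the 20 tested, none was called, 7 had a positive and 13 a negative log2 fold change, and the median was -0.19. None lay wholly higher and 20% wholly lower, against 15.0% and 15.7% of all tested genes. The part of such cells in the Cd209a result was not tested.

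Other genes that fell have known roles in splicing, chromatin and protein folding. Hnrnpa1, a splicing regulator gene, was at 364.3, 398.3 and 295.4 CPM in the controls and 156.0, 156.2 and 220.2 CPM in the repopulated libraries, and fell 1.99-fold (edgeR adjusted p = 0.0249). Hnrnpul1 fell 1.61-fold, Luc7l3, another splicing gene, 2.17-fold, Ddx3x, an X-linked RNA helicase gene, 1.88-fold, Smarca5, a chromatin remodeler gene, 1.79-fold, and Tet2, which encodes an enzyme that oxidises methylcytosine, 1.91-fold. Canx, the endoplasmic reticulum chaperone calnexin, fell 2.34-fold from 9223 ± 2759 to 3939 ± 790 CPM (SD, n = 3 each, edgeR adjusted p = 0.0387). Control 2 was the highest control for 19 of the 27 genes, and for Canx it held 12404 CPM against 7793 and 7472 CPM in control 1 and 3. How often control 2 was the highest control over all tested genes is not given here. Ddx3x escapes X inactivation, and the 2 controls without Y-linked transcripts had 441.5 and 416.4 CPM, against 377.2 CPM in control 2 and 179.6 to 262.1 CPM in the repopulated libraries. Against control 2 alone its log2 fold change was -0.78 (edgeR adjusted p = 0.0723, 0.000125 to 0.267 over the alternatives). Kdm6a, another gene that escapes inactivation, was at 43.0 and 49.1 CPM in control 1 and 3, 31.6 CPM in control 2 and 21.3 to 25.0 CPM in the repopulated libraries.

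Genes that rose in repopulated microglia included 2 of 37 homeostatic genes. Tmem119, a surface protein gene that marks resident microglia (chromosome 5, 113793729 to 113800396), was at 596.2, 546.9 and 777.1 CPM in the controls and 1141, 1280 and 1123 CPM in the repopulated libraries. It rose 1.85-fold (SE 0.18 on the log2 scale, edgeR adjusted p = 0.0468, 0.00011 to 0.267 over the alternatives), and wild-type libraries had 1317 to 1908 CPM. With the GC and length correction described below its log2 fold change was 0.57, against 0.88 without it. Il10ra, which encodes the ligand-binding chain of the receptor for the anti-inflammatory cytokine IL-10, rose 1.91-fold from 100 ± 22.1 to 192 ± 34.3 CPM (SD, n = 3 each, edgeR adjusted p = 0.0457). Wild-type microglia had 159.3 to 227.4 CPM of Il10ra, a range that overlaps the 162.9 to 229.5 CPM of the repopulated libraries.

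Among signalling genes Ncs1, Pde4b and Gna15 rose. Ncs1, which encodes the calcium sensor NCS-1 (chromosome 2, 31245708 to 31295989), was at 6.75, 5.39 and 13.5 CPM in the controls and 33.4, 32.8 and 28.7 CPM in the repopulated libraries. Pde4b, a cyclic AMP phosphodiesterase gene (chromosome 4, 102087332 to 102607275), was at 10.9, 11.1 and 14.4 CPM in the controls and 31.8, 28.3 and 22.6 CPM in the repopulated libraries. Gna15, a G protein alpha subunit gene of the Gq class (chromosome 10, 81502313 to 81524447), was at 82.9, 66.9 and 99.3 CPM in the controls and 182.7, 185.6 and 161.8 CPM in the repopulated libraries. For all 3 every repopulated library was above every control. Ncs1 was the 1 called of 38 calcium and ion channel genes, whose median log2 fold change was 0.11. Of the 38, 15.8% lay wholly higher and 15.8% wholly lower, near the 15.0% and 15.7% of all tested genes. The rise was 3.69-fold for Ncs1, 2.27-fold for Pde4b and 2.13-fold for Gna15 (edgeR adjusted p = 0.0119 for Ncs1 and 0.0158 for the others). Wild-type levels were 28.6 to 41.1 CPM, 25.2 to 35.4 CPM and 179.3 to 262.5 CPM in the same order. Elmo1, which acts with DOCK proteins to activate Rac in engulfment, rose 1.90-fold from 152 ± 26.2 to 288 ± 21.3 CPM (SD, n = 3 each, edgeR adjusted p = 0.0198). Rab3il1, an exchange factor gene for Rab GTPases (chromosome 19, 10001669 to 10038380), was at 115.7, 77.5 and 149.8 CPM in the controls and 299.5, 311.3 and 259.0 CPM in the repopulated libraries, and rose 2.54-fold (edgeR adjusted p = 0.0158). The adaptor gene Grap rose 2.02-fold, the tyrosine kinase gene Abl1 1.85-fold, the kinase gene Rps6ka1 1.75-fold and the phosphatase gene Ptpn1 1.74-fold. Siglece, an inhibitory sialic acid receptor gene, rose 1.78-fold from 30.3 ± 2.19 to 53.8 ± 5.44 CPM (SD, n = 3 each, edgeR adjusted p = 0.0354).

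The transcriptional regulator genes Bcl9l, Tsc22d3 and Btg2 rose. Bcl9l, a coactivator of beta-catenin (chromosome 9, 44482738 to 44511906), was at 3.35, 3.02 and 4.48 CPM in the controls and 15.6, 18 and 11.1 CPM in the repopulated libraries. Tsc22d3, which encodes the glucocorticoid-induced leucine zipper GILZ (chromosome X, 140539528 to 140600522), was at 26.1, 23.2 and 19.8 CPM in the controls and 88.8, 88.7 and 43.9 CPM in the repopulated libraries. Btg2, an antiproliferative early response gene (chromosome 1, 134074865 to 134079155), was at 94.8, 76.0 and 109.1 CPM in the controls and 189.1, 190.3 and 159.6 CPM in the repopulated libraries. Repopulated 3 was the lowest repopulated library for each of them and still lay above every control. Bcl9l rose 4.11-fold, Tsc22d3 3.20-fold and Btg2 1.93-fold (edgeR adjusted p = 0.0124 for Bcl9l and 0.0158 for the others). The uncharacterised gene 0610040J01Rik, at 67.4, 46.9 and 66.8 CPM in the controls and 118.9, 121.1 and 113.9 CPM in the repopulated libraries, rose 1.95-fold (edgeR adjusted p = 0.0158). Tsc22d3 was the 1 gene called of 23 glucocorticoid-responsive genes, whose median log2 fold change was 0.19, and Btg2 was the 1 called of 32 immediate early genes, with a median of 0.18. Dnajb1, a heat shock chaperone gene, was at 41.6 ± 8.46 CPM in control and 95.0 ± 35.8 CPM in repopulated libraries (SD, n = 3 each, edgeR adjusted p = 0.0535), and Atf3 at 39.0 ± 2.39 and 24.5 ± 1.01 CPM (edgeR adjusted p = 0.0662). Control 2 was the lowest control for 32 of the 40 higher genes that had counts in the controls. The matching share over all tested genes is not given here.

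**Figure D2:**
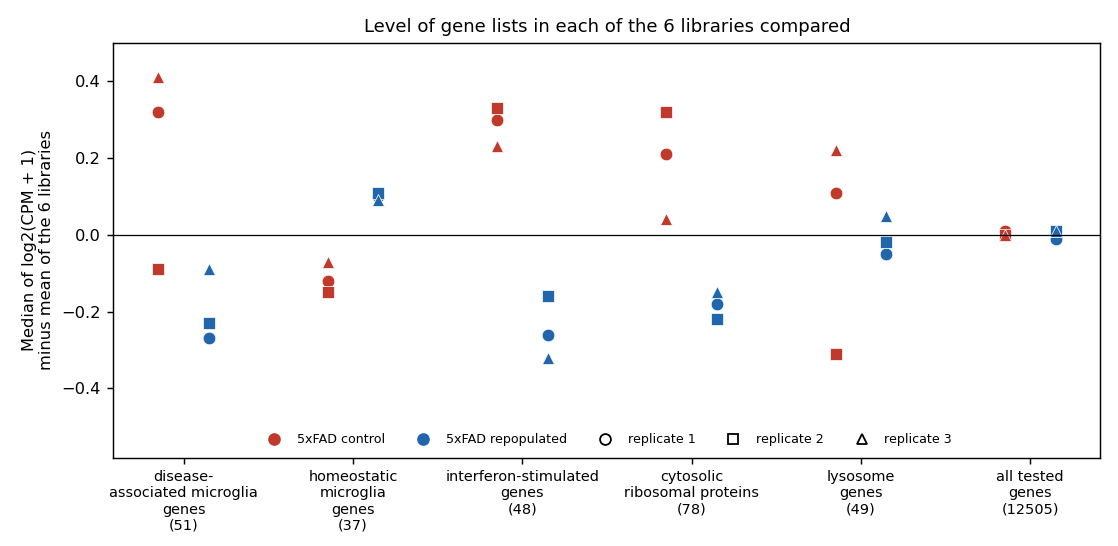
Level of 5 gene lists and of all tested genes in each of the 6 compared libraries, as the median over the list's tested genes of log2(CPM + 1) minus that gene's mean over the 6 libraries (number of genes in brackets). Control 2, the red square, lies among the repopulated libraries for disease-associated genes at -0.09 and below them for lysosome genes at -0.31, and with the other controls for interferon-stimulated genes at 0.33 and ribosomal proteins at 0.32.

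Genes of the disease-associated programme lay on the lower side in repopulated microglia. Of its 51 genes, all tested, 49 had a negative log2 fold change and 2 a positive one. By the test 6 fell (Mamdc2, Gas2l3, Igf1, Cybb, Fabp5 and Lilrb4a), none rose and 45 were not called. In the repopulated libraries 24 of the 51 genes (47.1%) lay wholly lower and none wholly higher, against 15.7% and 15.0% of all tested genes. The programme's median log2 fold change was -0.48, against 0.00 over all tested genes. Its level differed between the controls. On the log2(CPM + 1) scale, as the median deviation from the mean of the 6 libraries, it was 0.32, -0.09 and 0.41 in control 1, 2 and 3 and -0.27, -0.23 and -0.09 in repopulated 1, 2 and 3, so control 2 was level with repopulated 3. Against control 2 alone the median log2 fold change was -0.08, and over all alternatives it ran from -0.59 to -0.08. Apoe, the lipid carrier gene, was at 15899, 8104 and 18928 CPM in the controls and 9634, 10301 and 10531 CPM in the repopulated libraries (edgeR adjusted p = 0.403). Trem2, a lipid-sensing receptor gene, was at 2961, 2036 and 3221 CPM in the controls and 2677, 2648 and 2696 CPM in the repopulated libraries (edgeR adjusted p = 0.941). The groups overlapped for both, with control 2 below and the other controls above most or all repopulated libraries. Against control 2 alone the log2 fold change was 0.33 for Apoe and 0.40 for Trem2, of the opposite sign to the -0.49 and -0.03 with all libraries (edgeR adjusted p = 0.565 and 0.27, 0.000791 to 0.735 and 0.0663 to 1 over the alternatives). Itgax, the integrin CD11c gene, also turned, from -0.23 to 0.33, and Csf1, a ligand of the CSF1 receptor, from -0.23 to 0.58.

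Other genes of the programme were lower in each repopulated library than in each control without passing the test. Lpl, the lipoprotein lipase gene, was at 526 ± 38.8 CPM in control and 301 ± 61.9 CPM in repopulated libraries (SD, n = 3 each, edgeR adjusted p = 0.0806). Clec7a, the beta-glucan receptor dectin-1 gene, was at 765 ± 24.9 and 479 ± 77.8 CPM (edgeR adjusted p = 0.249), and Spp1, the osteopontin gene, at 567 ± 155 and 279 ± 66.2 CPM (edgeR adjusted p = 0.152). Ctsl, the cathepsin L gene, was at 2573 ± 92.4 and 1614 ± 32.1 CPM (edgeR adjusted p = 0.0517), and the chemokine gene Ccl3 at 314 ± 3.69 and 165 ± 60.1 CPM (edgeR adjusted p = 0.0581). Wild-type levels were 769.2 to 1023 CPM for Ctsl, 16.4 to 24.5 CPM for Ccl3, 15.5 to 28.7 CPM for Lpl and 27.0 to 72.6 CPM for Clec7a. Cst7, the cystatin F gene, was at 1384, 1033 and 1372 CPM in the controls and 881.6, 956.9 and 1087 CPM in the repopulated libraries, which overlapped (edgeR adjusted p = 0.514). Its wild-type level was 4.49 to 15.1 CPM, so each repopulated library held far more Cst7 than wild-type microglia. Of 49 lysosome genes none was called, and the median was -0.05, or 0.33 against control 2 alone. Of the 49, 3 (6.12%) lay wholly higher and 10 (20.4%) wholly lower, against 15.0% and 15.7% of all tested genes.

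Of the 37 homeostatic genes Tmem119 and Il10ra rose and none fell. The median log2 fold change was 0.20 (0.16 to 0.28 over the alternatives). Of the 37, 17 (45.9%) lay wholly higher and 3 (8.11%) wholly lower, against 15.0% and 15.7% of all tested genes. Selplg, the P-selectin ligand gene, was at 2215, 1260 and 2509 CPM in the controls and 3619, 3657 and 3801 CPM in the repopulated libraries, where wild-type libraries had 3607 to 4572 CPM (edgeR adjusted p = 0.0727). P2ry12, the ADP receptor gene through which microglial processes sense injury, was at 5119, 5396 and 5070 CPM in the controls and 5396, 4383 and 7165 CPM in the repopulated libraries. These overlapped (edgeR adjusted p = 0.777), below the 7262 to 9408 CPM of wild-type microglia. Cx3cr1, the fractalkine receptor gene, was at 890 ± 28.9 and 1058 ± 54.6 CPM (SD, n = 3 each, edgeR adjusted p = 0.45), and Sall1, the transcription factor gene of microglial identity, at 255 ± 33.8 and 342 ± 28.4 CPM (edgeR adjusted p = 0.162). Siglech and Gpr34, also on the list, were on the lower side, with log2 fold changes of -0.40 and -0.85 (edgeR adjusted p = 0.213 and 0.121). The list thus held genes on both sides.

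The receptor that PLX3397 blocks was examined with its signalling chain. Csf1r was at 2773, 2085 and 2967 CPM in the controls and 3632, 3885 and 3627 CPM in the repopulated libraries. Every repopulated library was above every control and within the 3252 to 4678 CPM of wild-type microglia, but Csf1r did not pass (log2 fold change 0.51, SE 0.18, edgeR adjusted p = 0.166). Of the 18 tested genes of a list of the receptor, its ligands, its signalling chain and other PLX3397 targets, none was called. Their median was 0.37 (0.26 to 0.57 over the alternatives). Of the 18, 9 (50%) lay wholly higher and none wholly lower, against 15.0% and 15.7% of all tested genes. Dok1, an adaptor gene, was at 12.4 ± 5.48 and 25.4 ± 2.32 CPM, and Syk, a tyrosine kinase gene, at 60.2 ± 3.51 and 94.6 ± 13.2 CPM (SD, n = 3 each, edgeR adjusted p = 0.0866 and 0.113). Mki67, a marker of dividing cells, was at 25.6 ± 4.52 CPM in control and 13.5 ± 2.93 CPM in repopulated libraries (SD, n = 3 each, edgeR adjusted p = 0.104). None of 48 cell cycle genes was called, and their median was -0.15, or 0.09 against control 2 alone.

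**Figure D3:**
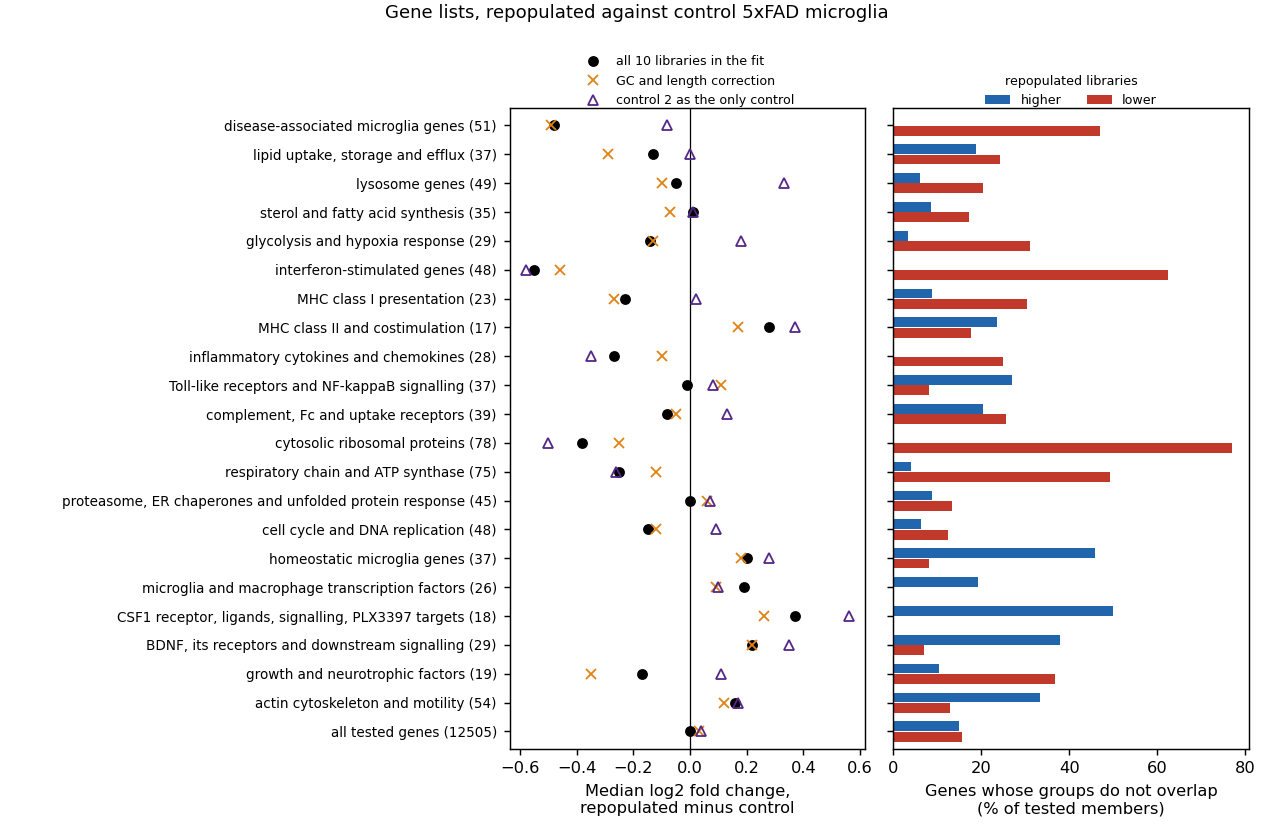
Left, median log2 fold change of each gene list with all 10 libraries in the fit (dots), with the GC and length correction (crosses) and against control 2 alone (triangles), with the number of tested genes in brackets, and right, the share of each list's tested genes whose 3 repopulated libraries lie wholly above or wholly below the 3 controls. Interferon-stimulated and ribosomal genes keep negative medians in all 3 fits, and the median of the disease-associated list is -0.08 against control 2.

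Interferon-stimulated genes lay on the lower side in repopulated microglia. Of 48 tested genes 1 fell (Slfn5) and none rose. Of the 48, 30 (62.5%) lay wholly lower and none wholly higher, against 15.7% and 15.0% of all tested genes. The median log2 fold change was -0.55, and -0.58 against control 2 alone (-0.83 to -0.44 over the alternatives). By library the median deviation was 0.30, 0.33 and 0.23 in the controls and -0.26, -0.16 and -0.32 in the repopulated libraries. Ifi204, a cytosolic DNA sensor gene, was at 105.9, 123.3 and 106.5 CPM in the controls and 54.3, 55.5 and 57.7 CPM in the repopulated libraries, where wild-type libraries had 14.2 to 35.4 CPM (edgeR adjusted p = 0.0834). Phf11b was at 107 ± 7.4 and 62.9 ± 3.74 CPM and Ifi211 at 15.7 ± 2.41 and 7.36 ± 0.67 CPM (SD, n = 3 each, edgeR adjusted p = 0.115 and 0.134). The groups did not overlap for these 3 genes. The wild-type libraries, which enter the same estimate of the spread, ranged from -1.20 to -0.02 in the median deviation of the list. Of 23 genes of MHC class I presentation Canx was the 1 called, and their median was -0.23, or 0.02 against control 2 alone.

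Genes of translation and respiration were on the lower side together. None of 78 cytosolic ribosomal protein genes was called, and their median log2 fold change was -0.38. Of the 78, 60 (76.9%) lay wholly lower and none wholly higher, against 15.7% and 15.0% of all tested genes. Rpl10a was at 303.0, 333.5 and 272.1 CPM in the controls and 205.3, 217.0 and 212.3 CPM in the repopulated libraries, where wild-type libraries had 140.8 to 168.5 CPM (edgeR adjusted p = 0.0744). Of 75 genes of the respiratory chain and ATP synthase none was called, 37 (49.3%) lay wholly lower and 3 (4%) wholly higher, and the median was -0.25. Cox7c, a complex IV subunit gene, was at 198 ± 48.1 and 114 ± 11.8 CPM (SD, n = 3 each, edgeR adjusted p = 0.0936). With the GC and length correction these medians were -0.25 and -0.12, and against control 2 alone -0.50 and -0.26. Near-identical ribosomal protein genes can share reads, so single values are uncertain.

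Fold changes followed the GC content of the transcripts. Across 12226 tested genes with a value, Spearman's rho between the log2 fold change and GC content was 0.436, as a description over genes of the same libraries, and 0.025 for transcript length. The called higher genes had a median GC content of 54.5%, the called lower genes 44.1% and all tested genes 49.3%. The libraries also differed in this respect within a group, with a rho between level and GC content of -0.195, -0.419 and -0.09 in control 1, 2 and 3 and 0.205, 0.49 and 0.049 in repopulated 1, 2 and 3. After correction of each library for GC content and length rho was 0.027, and 88 genes were called, 56 of the 71 among them. Genes that stayed called moved both ways. The log2 fold change went from 2.04 to 1.64 for Bcl9l and from 1.09 to 0.81 for Gna15, but from 1.18 to 1.29 for Pde4b. Besides Igf1, Cybb and Lilrb4a, the genes named here that were not called in that fit were Ddx3x, Gm4070, Abl1 and Luc7l3, at log2 fold changes of -0.70, -0.45, 0.58 and -0.88 (edgeR adjusted p = 0.0616, 0.127, 0.0535 and 0.0545, with ranges over the alternatives of 0.000125 to 0.267, 0.00043 to 0.267, 0.000317 to 0.233 and 1.9e-06 to 0.267).

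**Figure D4:**
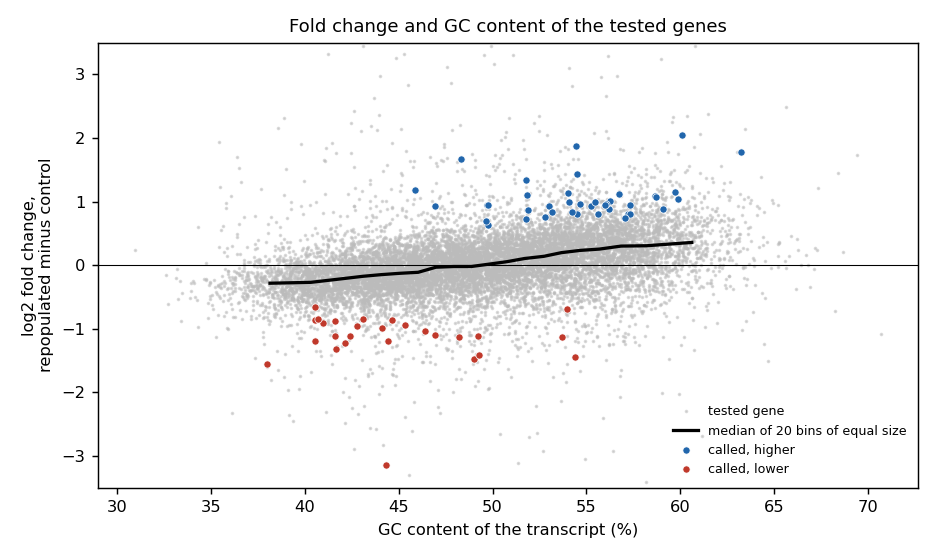
log2 fold change of repopulated against control microglia by GC content of the gene's longest transcript, for 12226 tested genes, with called genes that had control counts in colour and the line joining medians of 20 bins of equal size. The line runs from -0.28 at 38.1% GC to 0.36 at 60.6% GC, and 39 genes lie outside the axis.

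The title of the series names BDNF. Bdnf, which encodes that neurotrophic factor (chromosome 2, 109674700 to 109727043), had 6 counts over the 3 controls, all in control 1, and 13 over the 3 repopulated libraries, and was not tested. A difference was not detectable at this depth. The TrkB receptor gene Ntrk2 had levels of 0.936, 1.66 and 1.08 CPM in the controls and 2.47, 1.27 and 1.9 CPM in the repopulated libraries, which overlapped (edgeR adjusted p = 0.649). Of 29 tested genes of BDNF, its receptors and their signalling, Rps6ka1 was the 1 called. Plcg1, which encodes a phospholipase downstream of receptor tyrosine kinases, was at 4.16 ± 1.39 and 9.77 ± 2.38 CPM (SD, n = 3 each, edgeR adjusted p = 0.0782). The growth factor genes Pdgfa and Fgf2 were at 56.4 ± 5.09 and 23.7 ± 2.59 CPM in the controls and 38.2 ± 0.726 and 15.1 ± 3.04 CPM in the repopulated libraries (SD, n = 3 each, edgeR adjusted p = 0.0782 and 0.152). App was at 162 ± 7.62 and 132 ± 4.74 CPM (SD, n = 3 each, edgeR adjusted p = 0.226), and human transgene reads and mouse reads were not separated.

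The largest differences were in transcripts of the egg and early embryo. Omt2b, an oocyte maturation gene (chromosome 9, 78328030 to 78329620), had no count in any control or wild-type library and 6.52, 5.39 and 10.8 CPM in repopulated 1, 2 and 3. Omt2a beside it had 4.0, 3.15 and 7.6 CPM, Tcl1, a coactivator of AKT that eggs express (chromosome 12, 105216753 to 105222737), 3.28, 4.03 and 7.03 CPM, and Btg4, which acts in clearing maternal transcripts (chromosome 9, 51102147 to 51119924), 2.29, 2.15 and 4.2 CPM, with none in the controls. With the controls pooled and set at 3 counts as a floor, they were at least 155-fold, 101-fold, 97.8-fold and 58.9-fold higher in repopulated microglia, in the order named. They are among the 44 called genes, but they passed the filter on low counts only through the repopulated group where they are high, so no p is given. The floor covers counting error only. Omt2a and Omt2b are close copies that can share reads. Across all genes deposited, 41 (0.207%) had no count in the controls and at least 3 counts in each repopulated library, and 6 (0.0303%) showed the reverse. Of the 41, 19 had no count in wild-type libraries either. To a list of 31 egg and early embryo genes belong 13 of the 41, 10 of them without a wild-type count. The list is not complete. It holds Tcl1b1 and Tcl1b2 but not Tcl1b3 and Tcl1b4, which lie near them on chromosome 12 and are also among the 41. The 13 listed genes summed to 21.2, 20.4 and 40.8 CPM in repopulated 1, 2 and 3, or 0.00215%, 0.00213% and 0.00396% of counts. For the 10 of them with 10 or more counts in repopulated 1, the ratio of counts in repopulated 3 to repopulated 1 had a median of 2.01 and a range of 1.6 to 3.33. For the 9 with as many in repopulated 2, the ratio of repopulated 3 to repopulated 2 had a median of 1.99 and a range of 0.818 to 2.79. Whether hippocampal cells were the source of this RNA was not tested.

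**Figure D5:**
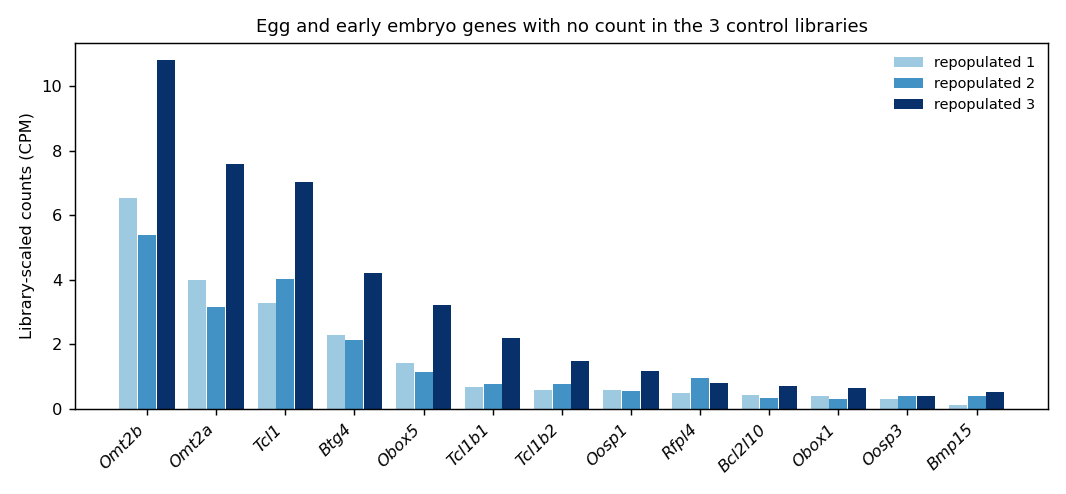
Levels in each repopulated library, in CPM (1 bar per library), of the 13 egg and early embryo genes that had no count in the 3 control libraries. Repopulated 3 holds the most of each gene except Rfpl4, which is highest in repopulated 2.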

How the data were processed

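RNA was extracted from sorted hippocampal microglia and made into Smart-Seq libraries, per the labels' protocols. HISAT, Bowtie2 and the build GRCm38.p6 are named in the submitters' processing notes. For the program that quantified genes and for all versions, the entry is: not given in the sources used here. The authors deposited estimated counts per gene beside FPKM and TPM. Of the nonzero deposited counts 20.1% were not whole (tolerance 0.001), and they were rounded for the count models. The deposited TPM served for ranks of marker genes, and the deposited FPKM was not used. Of 19782 genes, 19721 matched RefSeq GRCm38.p6, the source of coordinates and promoters.

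All 10 libraries entered 1 edgeR 4.0.16 model of 3 groups (R 4.3.3, TMM scaling, filterByExpr, robust quasi-likelihood fit), tested as repopulated minus control with Benjamini-Hochberg adjustment over 12505 genes. Fold changes carry a prior count of 0.125. The SE is the log2 fold change divided by the square root of F. The biological coefficient of variation was 27.3%. CPM used the TMM-scaled totals. Alternatives were other scalings and filters, DESeq2 1.42.0, limma-voom (limma 3.58.1), a replicate block, a GC and length correction, a term for Y-linked transcript status (above or below 50 CPM) and each library left out. The fits of the compared groups alone with GC correction, with Y-linked status or with a library left out were chosen after seeing the data. The procedure was tested on simulated data. These held no GC trend, no outlying control library and no Y-linked division of the libraries, so the test does not cover those features. Within each compared group, every pair of libraries differed by more than sampling noise.

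The text may name any called gene, gives every library, in words or in the plot of called genes, for the 12 called genes of smallest p in each direction and for called genes with no count in a group, and names up to 4 members of a list by smallest p and the genes of the study's subject. Cd209d, Xcr1, Zbtb46, Rfpl4, Ly6c1, Tcl1b1, Tcl1b2, Tcl1b3 and Tcl1b4 were named outside the rule after their values were seen. The members and lists were chosen with earlier results of these data known.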

Additional observations from a re-analysis of the deposited data

Results flagged for a closer look

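Among 50 values examined over the 4 wild-type libraries, 3 had a library far from the others. Chance alone marks about 5% of values in this way, so a count of 3 in 50 is near the chance level. The count does not weigh the size of each difference, and it does not show that any of the 3 arose by chance. Wild-type 3 held 72.6 CPM of Clec7a, where the others ranged from 27.0 to 31.3 CPM. It also held 8.21 CPM of Ntrk2, the TrkB receptor gene, where the others ranged from 1.78 to 1.89 CPM. Transcripts of 4 Y-linked genes summed to 16.01 CPM of the unscaled total in wild-type 2 and 430.99 to 446.07 in the others. Groups of 3 were not examined in this way.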

How the results depend on the processing

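The count of 71 genes became 698 with DESeq2, 125 with limma-voom, 166 with no filter on low counts, 125 with at least 5 CPM in 3 libraries and 630 with the compared groups alone. It was 355 at an adjusted p of 0.1, 4 at 0.01 and 35 with at least a 2-fold change. It was 1 with a term for Y-linked transcript status and 388 without the libraries that lack these transcripts. With the compared groups alone it was 451 with the GC and length correction and 2794 with the Y-linked term. Leaving out 1 library gave 0 to 328 genes, and 15 to 1232 with the compared groups alone (776 without control 2, 514 without repopulated 3). The 0 is edgeR's count without repopulated 2, where 1322 genes had an unadjusted p under 0.05, DESeq2 called 121 and limma-voom 7. DESeq2 size factors gave 64, upper-quartile scaling 59 and the GC and length correction 88. The cause of these changes was not tested.

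With the replicate number as a block 25 genes were called, and 32 with the GC and length correction as well. The labels do not say whether equal numbers mark a shared litter or day. Deviations of same-numbered libraries correlated at -0.049, -0.097 and -0.001 over 3 pairs, and no control correlated best with its own number. With 3 pairs this cannot decide whether the samples were paired.

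Of 2119 values of called genes under 30 other settings 1395 stayed called, 724 did not pass and 0 changed sign. Of 1314 values of other genes followed in the same way 17 changed sign. Trem2 was 0.13 with the Y-linked term, 0.40 without the libraries that lack Y-linked transcripts, 0.02 without control 1 and 0.10 without control 3, and with the compared groups alone 0.39, 0.03 and 0.10 for the term and the same controls. Apoe was 0.33 without the libraries that lack Y-linked transcripts and 0.32 with the compared groups alone and the term, Itgax 0.33 and 0.32, and Csf1 0.58 and 0.57. Csf1 was 0.02 without control 3 in both fits. P2ry12 was -0.09 without repopulated 3, and -0.08 with the compared groups alone. Leaving out 1 library of the 10 otherwise gave log2 fold changes down to -0.21 for Trem2 and -0.51 for Csf1, both without control 2, and up to 0.27 for P2ry12 without repopulated 2. The depth limits Bdnf, which was not tested.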
